A study of Mus musculus with 22 samples.

Results

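The immunoglobulin V gene loci are the arrays of variable gene segments of the heavy chain (Ighv, chromosome 12) and of the kappa light chain (Igkv, chromosome 6). The members were the genes of type IG_V_gene in the GENCODE vM21 annotation of mm10 (GRCm38) whose symbol starts with Ighv or Igkv, which were 213 of the 218 genes of that type and of 55450 annotated genes. The Ighv array held 113 genes, all on the minus strand, and ran from Ighv5-2 to Ighv1-85 (chr12:113578504-116000461, 2.42 Mb). The Igkv array held 100 genes, 38 on the plus and 62 on the minus strand, and ended at Igkv3-1 on the side of the constant gene (chr6:67555497-70704177, 3.15 Mb). Levels of 5mC were given in bins of 100 kb, and V genes overlapped 26 of these bins at Ighv and 33 at Igkv, of 26327 in all. Levels of 5hmC were given in bins of 1 Mb, and V genes overlapped 4 bins at each locus, of 2641 in all. The 59 bins of 5mC and the 8 bins of 5hmC all passed the filter that left out bins listed at 0 or 1 in any library, which kept 25664 and 2581 bins.

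The bins came from whole cortex without the hippocampus, olfactory bulb and cerebellum of untreated female C57BL/6 mice at 8 weeks of age, with no allele or transgene named in the labels. For each tissue there were 3 libraries of TAB-seq, which reads only 5hmC as C. For oxBS-seq, which reads only 5mC as C, cortex had 3 libraries and each of the others had 2. The labels call the replicates technical but describe them as independent mice, so p-values measure the spread between these libraries. A level is the modified fraction of a bin, from 0 to 1, with no read count beside it, so depth is unknown and the SD between libraries is the only error given. Tissue labels were not checked against marker genes, because RNA levels were not analysed here. In whole tissue, a different mixture of cells and a different level within each cell cannot be told apart.

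An antibody heavy chain gene is assembled from V, D and J segments, and a light chain gene from V and J segments, by cutting and joining of the DNA in developing B cells by the RAG1 and RAG2 recombinase. Outside lymphocytes the arrays keep their germline order, and V genes, each of which has a promoter of its own, are not known as transcribed genes of the brain. Methyl groups are placed on CpG sites by DNA methyltransferases, and TET enzymes oxidize 5mC to 5hmC, which is abundant in neurons and lies mainly in the bodies of expressed genes.

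The V genes themselves held few CpG sites, which sets what a bin level can show about them. The median V gene had 3 CpG sites at Ighv (range 0 to 9, median length 443 bases) and 2 at Igkv (range 0 to 7, median length 554 bases), and 5 Ighv and 8 Igkv genes had none. Of all CpG sites in the V bins, 2.49% lay in V genes at Ighv (331 of 13272) and 1.26% at Igkv (230 of 18189), so the bin levels describe the DNA between V genes far more than the genes. The sequences below are the last 300 bases of 6 V genes from the bins with the largest spread between tissues (Ighv1-12, Ighv1-15, Igkv6-20), the highest 5mC as a mean over tissues (Ighv1-81, Igkv3-7) and the lowest (Ighv1-85), read 5′ to 3′ on the strand of the gene in GRCm38, with each CpG in capitals. All are exon sequence, except that 99.3% of the Igkv6-20 stretch is. The first 4 are on the minus strand at chr12:114615850-114616149, chr12:114657353-114657652, chr12:115920279-115920578 and chr12:116000028-116000327, Igkv3-7 is on the plus strand at chr6:70607737-70608036, and Igkv6-20 is on the minus strand at chr6:70335841-70336140.
Ighv1-12: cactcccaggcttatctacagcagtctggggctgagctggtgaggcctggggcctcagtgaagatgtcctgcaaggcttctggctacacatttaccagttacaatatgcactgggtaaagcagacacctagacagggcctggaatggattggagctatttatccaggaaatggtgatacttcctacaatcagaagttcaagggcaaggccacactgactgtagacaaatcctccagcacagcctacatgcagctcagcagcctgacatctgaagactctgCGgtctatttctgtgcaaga
Ighv1-15: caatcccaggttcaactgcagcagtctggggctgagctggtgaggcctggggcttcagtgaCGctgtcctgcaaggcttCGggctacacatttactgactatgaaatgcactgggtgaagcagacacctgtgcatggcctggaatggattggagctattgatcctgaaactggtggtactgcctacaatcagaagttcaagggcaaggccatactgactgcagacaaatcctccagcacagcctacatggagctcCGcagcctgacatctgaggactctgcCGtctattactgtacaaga
Ighv1-81: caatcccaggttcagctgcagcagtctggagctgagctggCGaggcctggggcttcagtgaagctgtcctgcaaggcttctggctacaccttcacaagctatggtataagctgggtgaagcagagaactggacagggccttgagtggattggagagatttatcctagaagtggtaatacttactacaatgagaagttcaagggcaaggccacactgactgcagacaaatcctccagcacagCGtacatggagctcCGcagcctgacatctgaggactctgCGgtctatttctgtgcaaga
Ighv1-85: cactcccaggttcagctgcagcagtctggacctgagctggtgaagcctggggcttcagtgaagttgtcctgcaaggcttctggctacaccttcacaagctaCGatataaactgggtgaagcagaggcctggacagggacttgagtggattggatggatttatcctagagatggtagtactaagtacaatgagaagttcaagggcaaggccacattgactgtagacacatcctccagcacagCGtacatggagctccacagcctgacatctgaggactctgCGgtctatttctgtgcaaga
Igkv3-7: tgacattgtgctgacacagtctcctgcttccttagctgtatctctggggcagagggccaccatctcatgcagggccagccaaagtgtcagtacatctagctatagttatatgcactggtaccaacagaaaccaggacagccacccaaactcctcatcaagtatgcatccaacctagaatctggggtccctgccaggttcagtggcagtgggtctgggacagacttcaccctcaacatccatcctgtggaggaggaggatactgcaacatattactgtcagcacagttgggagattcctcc
Igkv6-20: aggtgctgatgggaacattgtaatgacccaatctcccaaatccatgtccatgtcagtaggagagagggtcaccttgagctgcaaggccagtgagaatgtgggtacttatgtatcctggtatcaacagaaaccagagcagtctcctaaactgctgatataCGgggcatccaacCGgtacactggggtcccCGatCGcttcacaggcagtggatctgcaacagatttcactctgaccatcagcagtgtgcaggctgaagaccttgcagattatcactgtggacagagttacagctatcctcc
Ighv1-12 showed 1 CpG in this stretch, Ighv1-15, Ighv1-81 and Igkv6-20 showed 4 each, Ighv1-85 showed 3 and Igkv3-7 none.

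The V bins also shared features that the annotation rule did not use. At Ighv the median CpG density was 4.91 per kb (range 3.84 to 8.14) and at Igkv 5.19 (range 3.69 to 9.70), against a median of 7.54 over the 25597 bins with a value. Soft-masked repeats covered a median of 45.1% of the Ighv bins and 51.8% of the Igkv bins, against 32.3% over all bins. Olfactory receptor clusters, another set of gene arrays, were close to the V bins in both features, with a median of 5.47 CpG sites per kb and 45.9% repeats over 347 bins. T cell receptor V bins, also used for comparison below, lay between the V bins and all bins. Their medians were 6.51 CpG sites per kb and 37.4% repeats over 25 bins. The part of these features in the levels was not tested.

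The first question was how much 5hmC the V arrays carry in brain. The interior of the Ighv array was nearly devoid of 5hmC in all 3 tissues. In the bin chr12:114000001-115000000, which holds 49 V genes, the 3 cortex libraries read 0.0182, 0.0190 and 0.0196, the olfactory bulb libraries 0.0124, 0.0161 and 0.0141, and the cerebellum libraries 0.0112, 0.0147 and 0.0144. Cortex was above both other tissues with no overlap, while olfactory bulb and cerebellum overlapped. Its neighbour chr12:115000001-116000000, with 37 V genes, read 0.0201 ± 0.0011 in cortex, 0.0154 ± 0.0026 in olfactory bulb and 0.0140 ± 0.0027 in the cerebellum (SD, n = 3 each). Among the 2581 bins ordered from the lowest level, these bins were at ranks 19 and 28 in cortex, 22 and 33 in olfactory bulb and 12 and 19 in the cerebellum. TAB-seq reads any 5mC that escapes oxidation as 5hmC, and the bin values carry no rate for this, so levels of this size cannot be told apart from 0.

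The 5hmC level rose at both edges of the Ighv array. The bin chr12:113000001-114000000, which holds 26 V genes together with the D, J and constant genes, read 0.0902 ± 0.0025 in cortex, 0.0687 ± 0.0033 in olfactory bulb and 0.0607 ± 0.0042 in the cerebellum. The bin chr12:116000001-117000000 holds only the last V gene, Ighv1-85, and read 0.199 ± 0.013, 0.195 ± 0.0052 and 0.144 ± 0.0069 in the same order. The bins beyond were at 0.186 ± 0.014, 0.194 ± 0.0063 and 0.121 ± 0.0047 on the side of the constant genes and at 0.215 ± 0.0099, 0.236 ± 0.0058 and 0.104 ± 0.0022 on the other.

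Igkv also had its lowest 5hmC in the interior bins, at higher levels than the interior Ighv bins, and the tissues stood apart there. The mean over all 4 V bins was higher at Igkv than at Ighv only in cortex (0.102 against 0.0821). It was lower at Igkv in olfactory bulb (0.0619 against 0.0734) and in cerebellum (0.0440 against 0.0579). In chr6:68000001-69000000, with 27 V genes, the cortex libraries read 0.0601, 0.0673 and 0.0600, the olfactory bulb libraries 0.0241, 0.0272 and 0.0244, and the cerebellum libraries 0.0178, 0.0201 and 0.0197. In chr6:69000001-70000000, with 31 V genes, they read 0.0831, 0.0950 and 0.0816 in cortex, 0.0294, 0.0374 and 0.0357 in olfactory bulb, and 0.0194, 0.0211 and 0.0206 in the cerebellum. The libraries of the 3 tissues did not overlap in either bin. The outer bins, with 12 and 30 V genes, were at 0.131 ± 0.011 and 0.128 ± 0.0096 in cortex, 0.0946 ± 0.0050 and 0.0936 ± 0.0027 in olfactory bulb, and 0.0701 ± 0.0045 and 0.0664 ± 0.0047 in the cerebellum. Among all bins ordered from the lowest level, the interior bins ranked higher in cortex (107 and 203 of 2581) than in olfactory bulb (55 and 69) and cerebellum (63 and 68). This difference in ranks was not tested. The ranks do not measure the depth of the dip: against the flanks, as a difference in fractions, the deficit of the V bins was smallest in cerebellum.

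**Figure D1:**
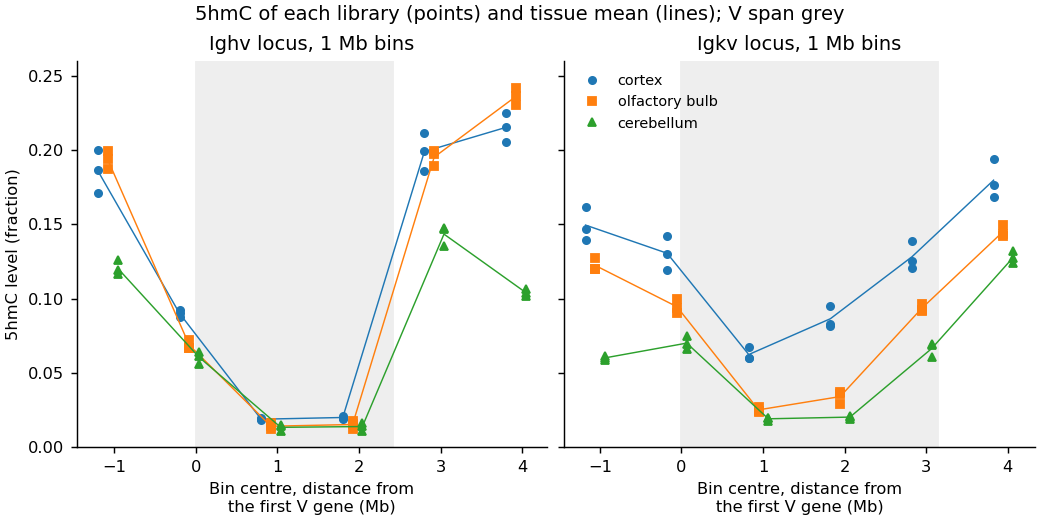
5hmC level (fraction, from 0) of each TAB-seq library in the 1 Mb bins at Ighv (left) and Igkv (right), against the distance of the bin centre from the first V gene in Mb. Points are libraries (3 per tissue), lines join tissue means and grey marks the V gene span. The interior Ighv bins sit between 0.0111 and 0.0213 in all 9 libraries, and the interior Igkv bins between 0.0178 and 0.0950.

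Against the 1 Mb bins that flank each array, the V bins were lower in 5hmC in 9 of 9 libraries at both loci. The mean difference was -0.105 ± 0.039 at Ighv and -0.0616 ± 0.010 at Igkv (SD over 9 libraries, two-sided exact sign-flip permutation test, p = 0.0039 each, the smallest that 9 libraries allow, adjusted p = 0.0091 over 14 such tests). The sign-flip tests take each library as a separate unit, and the SD over libraries takes in differences between tissues. Tissues may come from the same mouse, and same-numbered cortex and olfactory bulb TAB-seq libraries deviated together, so these p-values may be too small. With only the bins wholly inside the span, 2 at each locus, the differences were -0.160 and -0.0896. The V bins were also lower than other gene arrays in 9 of 9 libraries. Of these arrays, the T cell receptor V set held only 2 bins of 1 Mb, and the olfactory receptor set 52. The differences from the T cell receptor V bins were -0.0473 ± 0.019 at Ighv and -0.0491 ± 0.012 at Igkv, and those from the olfactory receptor bins -0.0210 ± 0.013 and -0.0228 ± 0.0057 (exact sign-flip permutation test, p = 0.0039 and adjusted p = 0.0091 each). The difference between Ighv and the olfactory receptor bins rested on how those were chosen, since with bins of at least 10 in place of at least 5 such genes it was -0.0080 (exact p = 0.13).

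Within the tissues, the deficit of 5hmC at Ighv was deepest in olfactory bulb. The V bins minus flanks read -0.120, -0.127 and -0.109 in the cortex libraries, -0.143, -0.144 and -0.137 in olfactory bulb, and -0.0538, -0.0537 and -0.0561 in the cerebellum, with no overlap between tissues. At Igkv the values were -0.0624, -0.0673 and -0.0586 in cortex, -0.0728, -0.0733 and -0.0699 in olfactory bulb, and -0.0462, -0.0525 and -0.0513 in the cerebellum, again with no overlap. For every pair the exact permutation p (two-sided) was 0.1, which is the lower limit of a comparison of 3 with 3 libraries, and 0.15 after adjustment over 24 tests. The sign at Igkv between cerebellum and cortex depended on the scale: +0.0127 as a difference in fractions, but -0.48 on the log2 ratio scale (log2 of level over 1 minus level). With the rest of the chromosome as the reference, the difference between olfactory bulb and cortex at Ighv was +0.0051 in place of -0.0229.

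The tests of single bins with limma, 1 fit over the 3 tissues on the log2 ratio scale, gave calls that followed the whole genome. The adjusted p threshold was 0.05 throughout. At Igkv 4 of 4 bins were called lower in olfactory bulb than cortex, 4 of 4 lower in cerebellum than cortex and 4 of 4 lower in cerebellum than olfactory bulb. At Ighv these counts were 3, 4 and 2 of 4, and no V bin was called higher in any pair (0 also at an unadjusted p under 0.05). Over all 2581 bins, 67.7%, 97.6% and 91.8% were called lower in these 3 comparisons and 3.25%, 0.426% and 1.2% higher in the same order. Against these shares, Ighv had fewer calls between cerebellum and olfactory bulb, and Igkv had more between olfactory bulb and cortex, over 4 bins each. The median change over all bins was -0.24, -0.97 and -0.72, and the direction at Ighv depended on it: with each library centred on its median, 4 of 4 Ighv bins were called higher in cerebellum than cortex, and 4 of 4 higher than olfactory bulb. Between cerebellum and olfactory bulb, the 2 Ighv calls became 4 without olfactory bulb replicate 1 and 1 without replicate 2. The interior Ighv bins read 0.0111 to 0.0213, which cannot be told apart from 0. Their calls, as given and after centring, therefore depend on a floor that is not known.

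At the interior Igkv bins the loss of 5hmC outside cortex was larger than the median over all bins on the log2 ratio scale. The change from cortex to olfactory bulb was -1.36 ± 0.073 and -1.43 ± 0.073 (log2 ratio ± SE) in the bins starting at 68 and 69 Mb, beside a median of -0.24 over all bins, and the second is the lowest change of any bin in that comparison. From cortex to cerebellum the changes were -1.77 ± 0.073 and -2.19 ± 0.073, beside a median of -0.97. As fractions these 2 changes to cerebellum were -0.0433 and -0.0662, smaller than the median of -0.0708 over all bins. From cortex to olfactory bulb, the 4 Igkv bins changed by -0.0524 to -0.0347 as fractions, more than the median of -0.0198. The cerebellum levels in the interior bins, 0.0178 to 0.0211, are in the range that cannot be told apart from 0, so the log2 changes depend on a floor that is not known. With each library centred on its median, 4 of 4 Igkv bins stayed called lower in olfactory bulb than cortex, 2 of 4 lower in cerebellum than cortex, and 3 of 4 became higher in cerebellum than olfactory bulb.

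The second question was the level of 5mC in the arrays. V bins were well methylated at both loci. At Igkv the mean over 33 bins was 0.755, 0.748 and 0.725 in the cortex libraries, 0.779 and 0.788 in olfactory bulb, and 0.774 and 0.757 in the cerebellum. The V bins were above their flanks in 7 of 7 libraries, by 0.0758 ± 0.018 (exact sign-flip permutation test, p = 0.0156, the smallest that 7 libraries allow, adjusted p = 0.0199). At Ighv the mean over 26 bins was 0.721, 0.713 and 0.694 in cortex, 0.719 and 0.722 in olfactory bulb, and 0.678 and 0.667 in the cerebellum. Cerebellum was the lowest tissue with no overlap, whereas over all 25664 bins it was the highest, at 0.731 ± 0.011, beside 0.677 ± 0.015 in cortex and 0.707 ± 0.0029 in olfactory bulb. Among all bins, the Ighv V bins had a median percentile of 60.2 in cortex, 49.0 in olfactory bulb and 20 in the cerebellum, and the Igkv V bins of 84.5, 90.3 and 60.0. The lowest cortex library at both loci, replicate 3, was also the lowest over all bins (0.660).

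**Figure D2:**
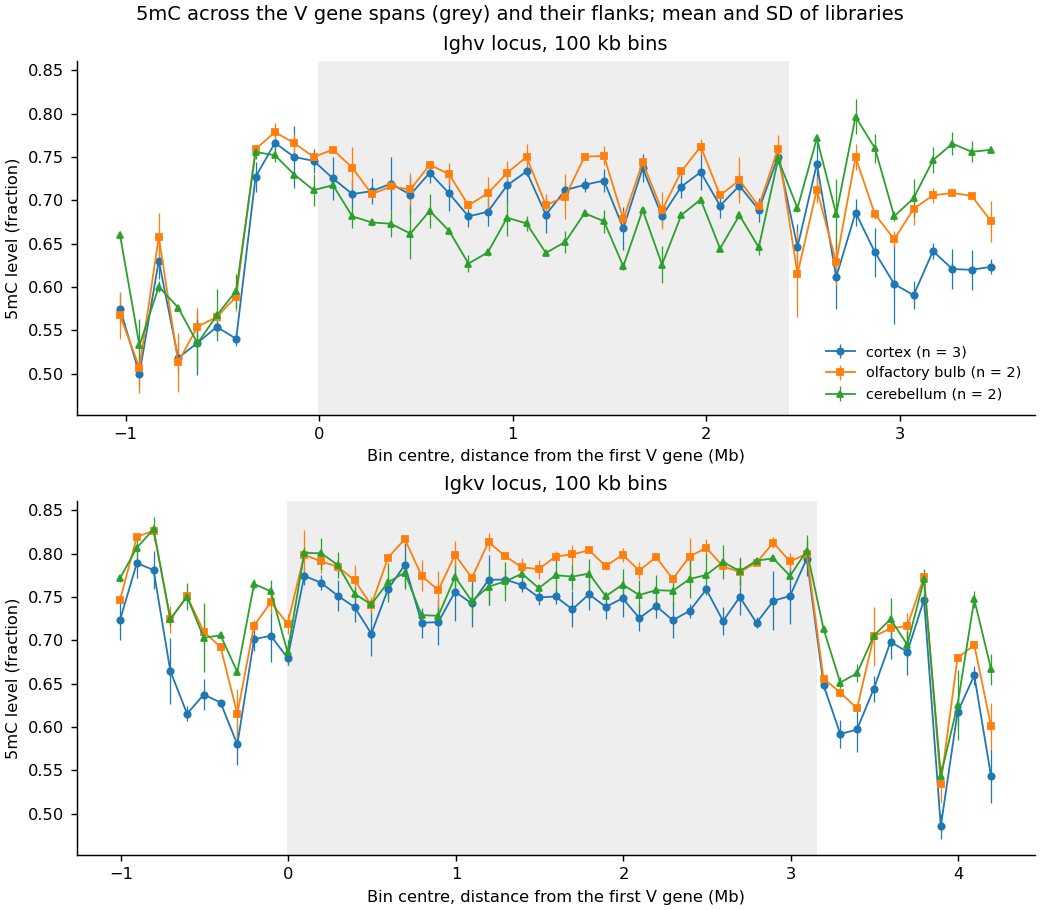
5mC level (fraction, on an axis that does not start at 0) in 100 kb bins across Ighv (top) and Igkv (bottom) against the distance of the bin centre from the first V gene in Mb, as mean and SD of 3 cortex, 2 olfactory bulb and 2 cerebellum libraries, with the V span in grey. Cerebellum lies under cortex in 25 of 26 Ighv bins, and olfactory bulb over cortex in 33 of 33 Igkv bins.

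Relative to its flanks, the Ighv array was lower in cerebellum than in the other tissues, and the sign in cerebellum depended on the flank. V bins minus flanks read 0.0921, 0.0765 and 0.0880 in the cortex libraries and 0.0538 and 0.0705 in olfactory bulb, but -0.0185 and -0.0097 in the cerebellum. Over the 7 libraries the mean was 0.0504 ± 0.046, above 0 in 5 of 7 (exact sign-flip permutation test, p = 0.0625, adjusted p = 0.0729). Without the 3 flank bins that hold other immunoglobulin genes it was 0.0683 (exact p = 0.0469), and the cerebellum libraries read -0.0090 and 0.0018. With 1 Mb bins it was 0.0669 (exact p = 0.0156) and above 0 in all libraries, with V bins at 0.689 and flanks at 0.683 in cerebellum, and with the rest of the chromosome as reference -0.0035 (exact p = 0.84). The difference between cerebellum and cortex was -0.0996 and that between cerebellum and olfactory bulb -0.0762 (exact permutation test, two-sided, p = 0.1 and 0.33, the lower limits of these designs). Both parts of the difference moved, since from cortex to cerebellum the V bins fell by 0.0370 while the flanks went from 0.624 ± 0.016 to 0.686 ± 0.014. The negative values in cerebellum rested on the distal flank: against the flank on the side of the constant genes the V bins were higher in all tissues, by 0.0996 ± 0.012, 0.0951 ± 0.019 and 0.0419 ± 0.0046, and against the other flank they differed by 0.0714 ± 0.0096, 0.0292 ± 0.0050 and -0.0700 ± 0.0079 (cortex, olfactory bulb, cerebellum). Against the mean of all bins the cerebellum value was -0.0591 ± 0.0036, beside 0.0322 ± 0.0053 in cortex.

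At Igkv V bins minus flanks read 0.0900, 0.0851 and 0.0875 in cortex, 0.0715 and 0.0923 in olfactory bulb, and 0.0547 and 0.0495 in the cerebellum. Cerebellum was under both other tissues with no overlap. The difference between cerebellum and cortex was -0.0355 (exact permutation test, two-sided, p = 0.1, its lower limit), and that between olfactory bulb and cortex, -0.0057, had no stable sign (exact p = 0.7) and became 0.0047 without olfactory bulb replicate 1. The mean level of the V bins itself was higher in olfactory bulb than cortex by 0.0408 (exact permutation test, p = 0.1), and by 0.0107 with each library centred on its mean over all bins (exact permutation test, p = 0.3). It was higher in cerebellum than cortex by 0.0231 (exact permutation test, p = 0.2), which became -0.0312 with each library centred on its mean over all bins.

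**Figure D3:**
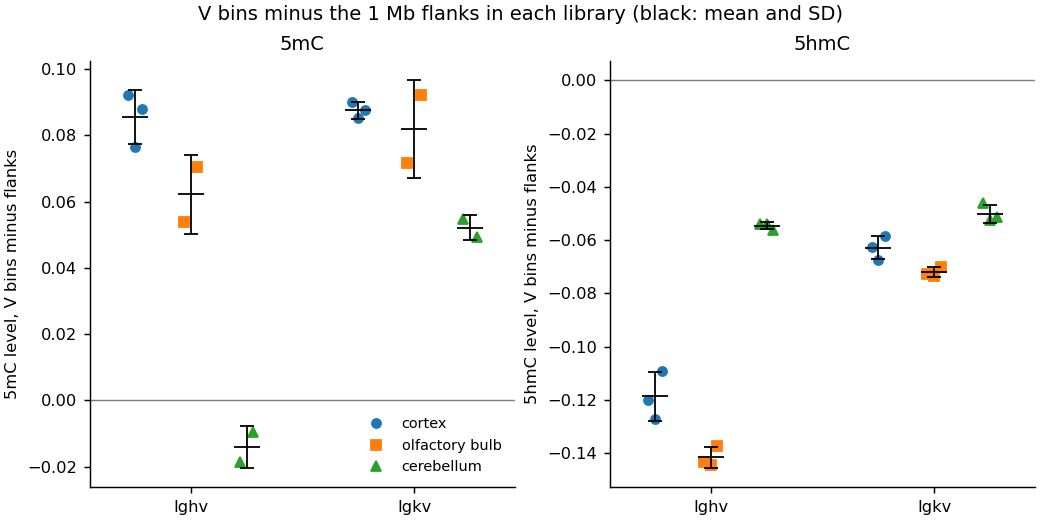
Mean level of the V bins minus that of the 1 Mb flanks in each library, for 5mC (left) and 5hmC (right), at Ighv and Igkv, with points as libraries and black marks as mean and SD. At Ighv the 5mC difference is above 0 in 5 cortex and olfactory bulb libraries and under 0 in both cerebellum libraries, and the 5hmC difference is under 0 in 9 of 9 libraries.

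Compared with other gene arrays, 5mC placed the arrays on either side. Ighv minus the T cell receptor V bins was -0.035 ± 0.037 and Ighv minus the olfactory receptor bins -0.0419 ± 0.026, each below 0 in 7 of 7 libraries. Igkv was above them by 0.0238 ± 0.014 and 0.0169 ± 0.0059 in 7 of 7 libraries (exact sign-flip permutation test, p = 0.0156 and adjusted p = 0.0199 for each of the 4). With medians over bins, Igkv minus olfactory receptor bins was 0.0061 (exact p = 0.078). In cerebellum the T cell receptor V bins were at 0.760 ± 0.013 and the olfactory receptor bins at 0.750 ± 0.010, beside 0.672 ± 0.0077 at Ighv (SD, n = 2). The levels lay closer together in cortex, at 0.716 ± 0.015 and 0.730 ± 0.015, beside 0.709 ± 0.014 at Ighv (SD, n = 3). Olfactory bulb read 0.744 and 0.759, beside 0.721 at Ighv.

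Bin by bin, the lower 5mC of cerebellum ran along nearly all of the Ighv array. It was under cortex in 25 of 26 bins, with a median change of -0.28 on the log2 ratio scale (range -0.42 to 0.29) and of -0.0435 as a fraction, beside a median of +0.43 and +0.0585 over all bins. By limma, 18 of 26 bins were called lower in cerebellum than cortex and 1 higher, against 4.44% of all bins called lower and 71.9% called higher. Against olfactory bulb, 20 bins were called lower and 1 higher, with 7.69% and 35.3% of all bins. In 21 of 26 bins both cerebellum libraries were below all 3 cortex libraries (5.62% of all bins), and in 24 of 26 below both olfactory bulb libraries (16.2% of all bins). With each library centred on its median, 25 of 26 bins were called lower in cerebellum in both comparisons and 0 and 1 higher. The number of calls rested on single libraries: it was 3 without cerebellum replicate 2, 6 without cortex replicate 1 and 11 without cortex replicate 2 in the comparison with cortex, and between 6 and 13 without any 1 library of cerebellum or olfactory bulb in the other.

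Other gene arrays shared that run of bins in part. From cortex to cerebellum, limma called 0 of 25 T cell receptor V bins lower (0 at an unadjusted p under 0.05) and 16 higher, and 22 of 347 olfactory receptor bins lower and 118 higher. Their median changes were 0.37 and 0.14 on the log2 ratio scale. From olfactory bulb to cerebellum, 218 of 347 olfactory receptor bins were lower, with 58 called lower and 13 higher and a median change of -0.08, beside +0.19 over all bins. Of the T cell receptor V bins, 1 was called lower and 5 higher, with a median change of 0.15.

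**Figure D4:**
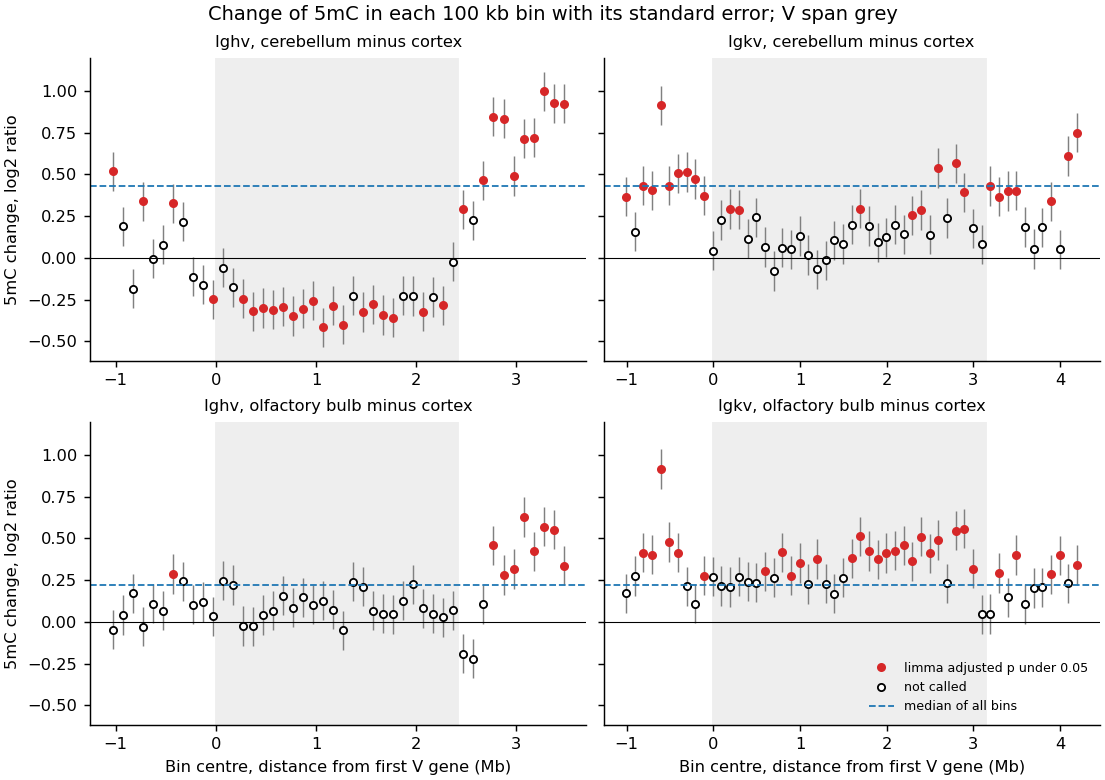
Change of 5mC per 100 kb bin on the log2 ratio scale with its standard error, for cerebellum minus cortex (top) and olfactory bulb minus cortex (bottom), at Ighv (left) and Igkv (right), against the distance from the first V gene in Mb. Red points passed a limma adjusted p of 0.05, the dashed line is the median of all 25664 bins (0.43 and 0.22) and grey marks the V span. At Ighv 18 of 26 points in the top panel are called below 0, and at Igkv 19 of 33 points in the bottom panel are called above 0, 5 with each library centred on its median.

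The Ighv bin with the largest spread between tissues, chr12:114600001-114700000, holds 5 V genes, among them Ighv1-12, Ighv1-15 and Ighv1-18. It read 0.736, 0.738 and 0.727 in cortex, 0.761 and 0.739 in olfactory bulb, and 0.679 and 0.667 in the cerebellum, which was apart from both (cerebellum minus cortex -0.42 ± 0.12, log2 ratio ± SE, limma adjusted p = 0.00076). The bin with the highest 5mC as a mean over tissues, though not in olfactory bulb, was chr12:115900001-116000000 with Ighv1-80, Ighv1-81 and Ighv1-82. It read 0.749, 0.759 and 0.743 in cortex, 0.748 and 0.771 in olfactory bulb and 0.747 and 0.748 in the cerebellum, and the tissues overlapped (-0.02 ± 0.12, limma adjusted p = 0.86). The next bin, chr12:116000001-116100000, had the lowest 5mC of the array as a mean over tissues, though not in cerebellum, and holds Ighv1-85 and the starts of Zfp386, a zinc finger gene, and Vipr2, a receptor of vasoactive intestinal peptide. It was the 1 bin called higher in cerebellum than cortex, at 0.687 and 0.694 against 0.666, 0.657 and 0.615 (0.29 ± 0.12, limma adjusted p = 0.019), and olfactory bulb read 0.650 and 0.580. This bin kept no call in that comparison without cerebellum replicate 1 or 2 or cortex replicate 3.

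At the other end, the first Ighv bin, chr12:113500001-113600000 with Ighv5-2, Ighv2-2 and Ighv5-4, also holds the start of Adam6a, a sperm protein gene. It was at 0.746 ± 0.014 in cortex and 0.712 in the cerebellum (-0.25 ± 0.12, limma adjusted p = 0.047). The adjoining bins with the constant genes were not called in that comparison, among them the bin of Ighm and Ighd, which encode the first heavy chain classes made by a B cell (0.750 in cortex, 0.730 in cerebellum, -0.16 ± 0.12, limma adjusted p = 0.21).

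Between olfactory bulb and cortex, 0 of 26 Ighv bins were called in either direction by limma, and at an unadjusted p under 0.05 there were 2 higher and 0 lower. Over all bins 37.6% were called higher and 2.18% lower. The Ighv median change was 0.07, beside 0.22 over all bins, and its sign turned when each library was centred: the mean level of the V bins in olfactory bulb minus that in cortex was 0.0115 as given and -0.0186 after centring. In 7 of 26 bins both olfactory bulb libraries were above all 3 cortex libraries, against 61% of all bins.

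From cortex to olfactory bulb Igkv rose in the direction of the genome, with a larger median change than over all bins (0.22), and in cerebellum it lagged the genome. Olfactory bulb was above cortex in 33 of 33 bins, with a median change of 0.32 (range 0.04 to 0.56), and limma called 19 higher and 0 lower (26 and 0 at an unadjusted p under 0.05), against 37.6% and 2.18% of all bins. In 30 of 33 bins both olfactory bulb libraries were above all 3 cortex libraries, against 61% of all bins. The call count was 12 and 5 without olfactory bulb replicate 1 and 2, and 5 with each library centred on its median. From cortex to cerebellum, 9 of 33 bins were called higher and 0 lower (11 and 0 at an unadjusted p under 0.05), against 71.9% and 4.44% of all bins, with a median change of 0.14. That is under the median of all bins (0.43), and after centring 0 were called higher and 20 lower. From olfactory bulb to cerebellum, 1 bin was called higher and 4 lower, against 35.3% and 7.69% of all bins, with 24 lower after centring. The 9 calls became 4 without cerebellum replicate 1, and the 4 calls became 0 without cerebellum replicate 2 or olfactory bulb replicate 2 and 2 without olfactory bulb replicate 1.

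The named Igkv bins lay toward the constant gene Igkc, which encodes the constant part of the kappa chain. The bin with the largest spread, chr6:70300001-70400000, holds 6 V genes, among them Igkv6-20, Igkv8-18 and Igkv8-16. It read 0.727, 0.717 and 0.716 in cortex, under 0.792 and 0.788 in olfactory bulb and 0.793 and 0.791 in the cerebellum (olfactory bulb minus cortex 0.54 ± 0.12, limma adjusted p = 7.44e-05). The bin with the highest 5mC as a mean over tissues, though not in olfactory bulb, was chr6:70600001-70700000 with Igkv3-7, Igkv3-5 and Igkv3-2. It read 0.795, 0.814 and 0.774 in cortex, 0.801 and 0.799 in olfactory bulb and 0.817 and 0.791 in the cerebellum, with overlap between all tissues. The lowest as a mean over tissues, though not in cerebellum, was chr6:70700001-70800000, which holds Igkv3-1 together with Igkc and Rpia, a pentose phosphate pathway enzyme. It read 0.655, 0.647 and 0.643 in cortex, 0.655 and 0.657 in olfactory bulb, and 0.716 and 0.710 in the cerebellum, where it was higher than in cortex (0.43 ± 0.12, limma adjusted p = 0.00050). The bin of the last V gene at the other end was at 0.680 ± 0.0076 in cortex, 0.719 in olfactory bulb and 0.686 in the cerebellum.

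V families were spread over bins that they share, so their counts repeat those of the bins. Ighv1, the largest family, had 53 genes in 17 bins, with a median bin level of 0.712 in cortex and 0.673 in the cerebellum, and 37 of its genes lay in bins called lower in cerebellum than cortex and 1 in a bin called higher, against 4.44% and 71.9% of all bins. Ighv5 (10 genes), Ighv2 (9) and Ighv8 (9) had 5, 3 and 6 genes in bins called lower and 0 in bins called higher. Of Igkv4, with 26 genes in 11 bins, 20 genes lay in bins called higher in olfactory bulb than cortex (37.6% of all bins), at medians of 0.797 and 0.749. The counts were 3 of 10 for Igkv1, 9 of 10 for Igkv8, 3 of 9 for Igkv3 and 7 of 9 for Igkv6.

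Distance from the J and constant genes went with no difference that passed a test. The 13 distal Ighv bins minus the 13 proximal ones were -0.0048 ± 0.0062 over 7 libraries, below 0 in 6 of 7 (exact sign-flip permutation test, p = 0.094, adjusted p = 0.10), and -0.0064 without cerebellum replicate 2 (exact p = 0.031). The 16 distal Igkv bins minus the 17 proximal ones were -0.00015 ± 0.010 (exact p = 0.95), with values of 0.0097 ± 0.0038 in cortex, -0.0042 ± 0.0049 in olfactory bulb and -0.0109 ± 0.0041 in the cerebellum. Across the bins of a locus, which share libraries and neighbours, Pearson's r of the mean 5mC level with CpG density was 0.22 over 26 Ighv bins and -0.40 over 33 Igkv bins, and Spearman's rho 0.45 and 0.26, so the sign at Igkv depended on the measure.

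Adding both marks in the same 1 Mb bins showed how the modified fraction was made up. Inside the Ighv span the sum of 5mC and 5hmC came to 0.729 ± 0.012 in cortex, 0.738 ± 0.0070 in olfactory bulb and 0.680 ± 0.0083 in the cerebellum (error from the SDs of both assays), of which 5hmC was 2.68%, 2.0% and 2.02%. In the Ighv flanks the sums were 0.803 ± 0.017, 0.826 ± 0.018 and 0.795 ± 0.013, with 25%, 26% and 14.1% as 5hmC. Inside the Igkv span they were 0.819 ± 0.018, 0.818 ± 0.0070 and 0.780 ± 0.014, with 9.09%, 3.63% and 2.53% as 5hmC. Over all bins 5hmC made up 19.4%, 17.0% and 11.5% of sums of 0.840, 0.852 and 0.826. With the 4 V bins at Ighv, which take in the edges, the sums were 0.770 ± 0.016, 0.784 ± 0.0027 and 0.746 ± 0.011. The sum joins separate libraries of each assay and was not tested. The 5hmC levels inside the Ighv span, and inside the Igkv span in cerebellum, cannot be told apart from 0. Their shares, 2.0% to 2.68% and 2.53%, have the same limit.

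**Figure D5:**
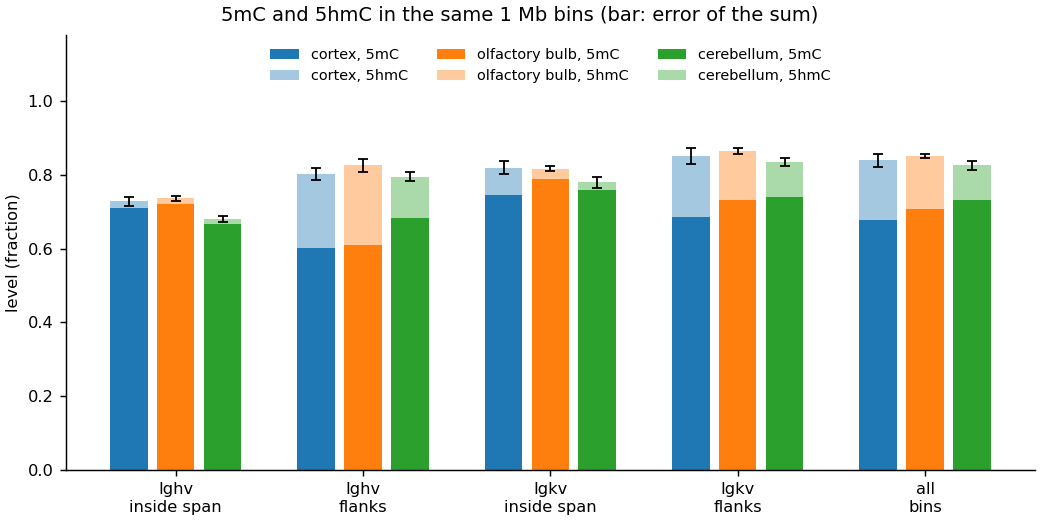
Stacked means of 5mC (solid) and 5hmC (pale) in the same 1 Mb bins, as fractions from 0, for the 2 bins inside each V span, the 2 flank bins of each and all 2581 bins, by tissue, with the error of the sum as a bar. The pale part is 2.0% to 2.68% of the sum inside Ighv and 14.1% to 26% in its flanks. Inside Ighv the 5hmC level cannot be told apart from 0.

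Genes of the B cell pathway came from a list of 25 genes (Rag1, Rag2, Pax5, Ebf1, Cd79a and others). They were taken by the 100 kb bin of their start and lay in 22 bins. The list was not wholly outside the arrays, since Igkc lies in the V bin of Igkv3-1, and Ighm and Ighd lie in a flank bin of Ighv. Igkc is among the genes counted below as called higher in cerebellum, against cortex and against olfactory bulb. From cortex to cerebellum 13 genes were in bins called higher and 1 lower, from cortex to olfactory bulb 7 and 0, and from olfactory bulb to cerebellum 4 and 0. Over all bins, 71.9%, 37.6% and 35.3% were called higher in these comparisons, which is above the share of the list in each. Rag1 and Rag2, which encode the recombinase, share a bin at 0.591 in cortex, 0.639 in olfactory bulb and 0.674 in the cerebellum (cerebellum minus cortex 0.52 ± 0.12, limma adjusted p = 2.96e-05). The bin of Tcf3, a transcription factor of early B cells, was the one called lower (0.450 to 0.396, -0.32 ± 0.12, limma adjusted p = 0.0088). The median change of the list from cortex to cerebellum was 0.28, beside 0.43 over all bins.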

How the data were processed

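Levels of 5mC (oxBS-seq, 7 libraries) and 5hmC (TAB-seq, 9 libraries) of 3 tissues were analysed. Bismark was used by the authors for unique mapping to mm10, a binomial model for calling sites, and the deposited value is 1 fraction per bin (100 kb for 5mC, 1 Mb for 5hmC), without coverage. The way in which sites were combined into bins is not given in the sources used here. Unique mapping can leave V genes that resemble each other with fewer reads, which the files do not show. Groups and replicate numbers came from the labels.

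Bins listed at 0 or 1 in any library were left out. Regions are unweighted means over bins, with flanks of 1 Mb on each side. Libraries were compared with exact sign-flip and exact permutation tests (2-sided) and single bins with limma (version 3.58.1, R 4.3.3) on the log2 ratio of level to 1 minus level, adjusted by Benjamini-Hochberg. In limma the variance was moderated strongly toward a common value, so standard errors hardly differed between bins. On simulated data, limma found 91 of 100 5mC bins changed by 1 and 31 of 100 changed by 0.5 from cortex to cerebellum, with 5 false calls among 25664 bins, and for 5hmC 100 and 99 of 100 with 11 among 2581. The simulated bins varied independently, with no shift of a whole library and no change between tissues in the other bins. These counts therefore do not give the error rate of the calls reported here. V genes, CpG sites and repeats came from GENCODE vM21 and the GRCm38 sequence. Olfactory receptor bins held at least 5 such genes per 1 Mb or 1 per 100 kb. Bins with both T cell receptor V genes and olfactory receptor genes were left out of both sets. The named V genes are those at the ends of each span and up to 3 in the bins with the highest 5mC, the lowest 5mC and the largest range between tissues, with the 4 largest families per locus (5 at Igkv, where 2 tie). The members, gene lists and tests were chosen with earlier results of these data known. Same-numbered TAB-seq libraries of cortex and olfactory bulb deviated together over all bins (r of 0.13, 0.34 and 0.25), and those of the other pairs of tissues did not (-0.23 to 0.074), a pairing taken from these correlations. Alternatives were other flanks and references, medians, bins wholly inside the span, other scales, centring, all bins, limma's trend and robust options, a replicate block and leaving out each library. Python 3.11.15 with numpy 2.4.6, pandas 2.3.3 and matplotlib 3.10.9 did the rest. RNA-seq samples were not analysed here.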

Additional observations from a re-analysis of the deposited data

Results flagged for a closer look

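At Ighv, 5mC of the V bins minus their flanks in 100 kb bins was below 0 in both cerebellum libraries and above 0 in every library of the other tissues. It was -0.0141 ± 0.0062 in cerebellum (n = 2), 0.0855 ± 0.0081 in cortex (n = 3) and 0.0622 ± 0.012 in olfactory bulb (n = 2), so cerebellum differed from cortex by -0.0996 and from olfactory bulb by -0.0762. The opposite sign was lost with other flanks: without the flank bins of other immunoglobulin genes the cerebellum libraries read -0.0090 and 0.0018, and in 1 Mb bins the V bins were at 0.689 and the flanks at 0.683. At Igkv, the distal minus the proximal V bins were above 0 in all 3 cortex libraries and below 0 in both libraries of each other tissue. The difference from cortex was -0.0139 for olfactory bulb and -0.0206 for cerebellum. The Ighv differences gave p = 0.1 and 0.33 in the exact permutation test, the lower limits for these numbers of libraries, and the Igkv differences were not tested.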

How the results depend on the processing

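The 5hmC deficit of both arrays against their flanks kept its direction under every alternative run. The lower mean 5mC of the Ighv V bins in cerebellum kept its direction under the alternatives run in 100 kb bins. In the 4 bins of 1 Mb, which take in sequence beyond the span, it was 0.689 in cerebellum and 0.688 in cortex, and in the 2 wholly inside 0.666 and 0.709. Depth is unknown, and with 2 or 3 libraries a group the calls per bin rest on the variance that limma shares between bins. The cause was not tested for any change listed here.

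With the rest of the chromosome as the reference, 5mC of Ighv V bins was -0.0035 relative to it, the Igkv difference of olfactory bulb from cortex became 0.0076 and that of 5hmC at Ighv 0.0051. A flank without other immunoglobulin genes gave 0.0683 and 1 Mb bins 0.0669 for Ighv 5mC minus flank. A flank of 2 Mb and the log2 ratio scale turned the Igkv 5mC difference of olfactory bulb from cortex to 0.0034 and 0.014, and the log2 ratio scale turned the Igkv 5hmC difference of cerebellum from cortex to -0.48. With each library centred on its mean, 5mC of V bins read -0.0186 for olfactory bulb minus cortex at Ighv and -0.0312 for cerebellum minus cortex at Igkv. For 5hmC, centring gave 0.0098, 0.0441 and 0.0343 at Ighv (olfactory bulb minus cortex, cerebellum minus cortex, cerebellum minus olfactory bulb) and 0.0103 and 0.0319 at Igkv for the last pair of comparisons. Medians over bins gave 0.0061 for Igkv minus olfactory receptor bins in 5mC, and 0.0031 and 0.0013 for distal minus proximal bins at Ighv and Igkv. Bins with more olfactory receptor genes gave -0.0080 for Ighv in 5hmC. Bins wholly inside the span moved the sums at Ighv to 0.729, 0.738 and 0.680 and at Igkv to 0.818 and 0.780 in olfactory bulb and cerebellum.

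Calls per bin changed most with centring on the library median. For 5mC it gave 4 Ighv bins lower in olfactory bulb than cortex, 0 higher in cerebellum than cortex, 5 Igkv bins higher in olfactory bulb than cortex, 0 higher and 20 lower in cerebellum than cortex, and 0 higher and 24 lower in cerebellum than olfactory bulb. For 5hmC it gave 1 Ighv bin higher and 1 lower in olfactory bulb than cortex, 4 higher and 0 lower in cerebellum than either, 2 Igkv bins lower in cerebellum than cortex, and 3 higher and 0 lower in cerebellum than olfactory bulb. The fraction scale gave 2 Igkv bins lower in 5mC in cerebellum than olfactory bulb, and 1, 2 and 1 Ighv bins lower in 5hmC. With all bins and levels limited to stay off 0 and 1, 5mC gave 1 Ighv bin higher in olfactory bulb than cortex, 0 higher in cerebellum than either, 5 Igkv bins higher in cerebellum than cortex and 1 lower than in olfactory bulb.

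Correlations between oxidative bisulfite libraries with the same replicate number were -0.091 to 0.016 over 6 pairs. With 2 libraries each in olfactory bulb and cerebellum, the deviations of replicates 1 and 2 mirror each other, so the pairs are not independent. Their sign also follows the replicate numbers of the labels. These values therefore cannot show whether the libraries were paired. For 5hmC the numbers paired cortex with olfactory bulb only, and there the replicate block left the calls at 3 of 4 Ighv and 4 of 4 Igkv bins lower in olfactory bulb. The replicate block gave 1 Ighv bin lower in 5mC in olfactory bulb than cortex, 0 higher in cerebellum than cortex and 9 Igkv bins lower in cerebellum than olfactory bulb. When numbered by the names of the libraries, which partly differ from the labels, the replicate block gave 4 Ighv and 29 Igkv bins higher in olfactory bulb than cortex and 8 Igkv bins lower in cerebellum than olfactory bulb.

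Without 1 library at a time, the 5mC calls at Ighv ranged over 0 to 1 lower in olfactory bulb than cortex, 0 to 1 higher and 3 to 23 lower in cerebellum than cortex, and 0 to 1 higher and 6 to 13 lower in cerebellum than olfactory bulb. At Igkv they ranged over 5 to 19 higher in olfactory bulb than cortex, 4 to 11 higher in cerebellum than cortex, and 0 to 1 higher and 0 to 4 lower in cerebellum than olfactory bulb. The 5hmC calls at Ighv lower in cerebellum than olfactory bulb ranged over 1 to 4. The Igkv 5mC difference of olfactory bulb from cortex, relative to the flank, ranged over -0.0160 to 0.0047, and distal minus proximal bins over -0.0064 to -0.0031 at Ighv and -0.0025 to 0.0021 at Igkv.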

Other observations

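Some flank bins were as methylated as the arrays. The 3 bins with the heavy chain constant genes had a 5mC level of 0.727 ± 0.017, 0.766 ± 0.010 and 0.750 ± 0.036 in cortex, while the 7 bins beyond them lay between 0.500 and 0.630. Beyond the distal end of Igkv, the bins with Vmn1r33 to Vmn1r35 and with Vmn1r36 to Vmn1r38, vomeronasal receptor genes in another array, were at 0.789 and 0.781 in cortex, 0.819 and 0.827 in olfactory bulb, and 0.807 and 0.828 in the cerebellum.

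On the far side of Ighv, the flank bin with the starts of Ncapg2, a condensin subunit gene, and Ptprn2, a receptor phosphatase of secretory vesicles, was at 0.640 in cortex, 0.684 in olfactory bulb and 0.760 in the cerebellum (cerebellum minus cortex 0.83 ± 0.12, limma adjusted p = 3.41e-11).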
